A study of Homo sapiens with 16 samples.

Results

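Amino acid transporters are the membrane proteins that bring amino acids into cells, exchange them across the plasma membrane and move them out of lysosomes. They were taken from arrays of HepG2 cells, an established human liver tumour line that keeps many hepatocyte functions, by gene symbol alone: every probe of the SLC1A, SLC3A, SLC7A, SLC36A, SLC38A and SLC43A families, with SLC6A6, SLC6A9, SLC6A14, SLC6A15 and SLC6A19. The rule found 43 probes for 40 genes, out of 30968 probes, of which 17397 carry a symbol for 15240 distinct genes. A total of 30 probes for 28 genes could be tested, and the other 13 had a value at or below 0 in at least 1 sample. The groups were cells given 100 µM elaidic acid, cells given 100 µM oleic acid, cells given 100 µM stearic acid and control cells with no fatty acid. All were kept for 7 days without serum, with 4 biological replicates per group. The acids share a chain length and differ in the double bond, which is trans in elaidic acid, cis in oleic acid and missing in stearic acid. HepG2 is 1 line from 1 tumour, so replicates are separate cultures of the same cells.

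Amino acid transporters are grouped by what they carry and by how they work. The SLC7 family holds cationic carriers such as SLC7A1 and SLC7A2, which work alone, and light chains, which pair with a heavy chain of the SLC3 family to reach the membrane and exchange one amino acid for another. Members of the SLC38 family use the sodium gradient to load neutral amino acids such as glutamine, and the SLC1 family includes glutamate carriers and exchangers of small neutral amino acids. Several of these genes are known targets of ATF4, the transcription factor that is made when amino acids run short or the endoplasmic reticulum is stressed. In liver, glutamine carriers and cationic carriers feed the synthesis and breakdown of nitrogen compounds.

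Promoter windows are shown for 3 members because SLC1A4 and SLC7A1 had the smallest p-values with elaidic acid against control, and SLC1A5 is 1 of the members whose window holds an amino acid response motif. Each window is the 250 bases before an annotated start in RefSeq on GRCh38.p14, and 29 of the 40 member genes had at least 1. The SLC1A5 window lies on the minus strand at chr19:46784815-46785064 and is 1 of 3 windows of that gene. Its capitals mark the motif TTGCATCA on the opposite strand, 97 bases before the start. The SLC7A1 window lies on the minus strand at chr13:29595689-29595938, and its capitals mark TGACNNNGC, the core of the antioxidant response element, 85 bases before the start. The SLC1A4 window shown lies on the plus strand at chr2:64988229-64988478 and holds none of the motifs searched. Nor does the other window of that gene, at chr2:64989149-64989398. That other window ends in ttgcatc, and a motif that crosses a window edge was not counted.
SLC1A5: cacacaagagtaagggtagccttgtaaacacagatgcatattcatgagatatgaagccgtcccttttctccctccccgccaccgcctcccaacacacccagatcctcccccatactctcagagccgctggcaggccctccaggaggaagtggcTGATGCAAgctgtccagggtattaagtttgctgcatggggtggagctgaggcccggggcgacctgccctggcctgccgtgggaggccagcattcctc
SLC7A1: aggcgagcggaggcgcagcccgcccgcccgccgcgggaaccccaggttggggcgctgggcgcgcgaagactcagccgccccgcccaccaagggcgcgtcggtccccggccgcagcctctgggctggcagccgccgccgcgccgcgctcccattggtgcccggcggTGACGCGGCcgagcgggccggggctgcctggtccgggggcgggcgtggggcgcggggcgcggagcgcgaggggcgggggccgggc
SLC1A4: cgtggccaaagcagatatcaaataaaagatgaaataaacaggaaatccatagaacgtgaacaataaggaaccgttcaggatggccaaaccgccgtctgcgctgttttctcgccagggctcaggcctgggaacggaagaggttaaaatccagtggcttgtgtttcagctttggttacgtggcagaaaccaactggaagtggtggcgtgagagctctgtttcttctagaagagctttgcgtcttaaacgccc

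The motifs were searched on both strands in 48 windows of the member genes and in all 35116 windows of the RefSeq table. TTGCATCA, a composite site of ATF4 and C/EBP proteins, was in 2 member windows (4.17%), those of SLC1A3 and SLC1A5, and in 0.772% of all windows. The looser spelling TGATGNAA was found in the same 2 windows, at the same places, and in 3.14% of all windows. TGACNNNGC was in 6 member windows (12.5%), of SLC1A3, SLC1A5, SLC3A2, SLC7A1, SLC7A6 and SLC7A7, and in 10.9% of all windows. A match is only a run of letters, and none was tied to the expression values.

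The deposited values are intensities of a single dye. Judged by their range and by the sample medians, they are background-subtracted and not scaled from sample to sample. They were taken to log2 and quantile normalised, and a level below is the normalised log2 level of 1 probe, to be compared between samples and not between probes. Median intensity per sample ran from 19.95 to 76.1. A probe was called near background in a sample when it lay under 3 times the noise SD of that sample, which is an intensity of 7.84 to 11.1. Among the 30 tested member probes, 25 were above this limit in every sample, 4 were below it in 1 to 5 samples, and 1 (SLC43A3) was near background in 12 of 16. The 4 were those of SLC7A4 (5 samples), SLC7A6 (2), SLC38A1 probe PH_hs_0022481 (1) and SLC1A6 probe PH_hs_0032730 (5). Of all 43 member probes, 20.9% were near background in more than 8 samples, against 23.9% of all probes. All 8 hepatocyte markers with a probe, among them APOA1 and TTR, were above the limit in every sample, as were AFP and GPC3. COL3A1, CFTR and KRT7 were near background in 15, 14 and 10 samples, while CD14, CDH5, COL1A1 and PTPRC were above the limit in all 16.

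The arrays fall into 2 ranges of array numbers in the labels, called slide series A and B. Series A holds elaidic acid samples 2 and 4, all oleic acid samples and all control samples, and series B holds elaidic acid samples 1 and 3 and all stearic acid samples. Several members had levels that followed the series, so each contrast is given without and with slide series as a block. No control or oleic acid sample lies in series B with stearic acid, so in those contrasts the series and the acid cannot be told apart except through the elaidic acid samples. Control sample 1 and oleic acid sample 4 were the dimmest arrays, with median intensities of 19.95 and 20.7. Every p-value is from limma on all 16 samples, adjusted over the 22939 probes tested, and a probe passed at an adjusted p under 0.05. The ± of a change is its standard error in the model, and intervals are 95% intervals. The contrasts with control share the control samples, and those with oleic acid share the oleic acid samples.

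Elaidic acid against control asks what the trans acid did to the transporters. SLC1A4, an exchanger of alanine, serine, cysteine and threonine also called ASCT1, had its 4 elaidic acid values above all 4 control values, by 0.75 ± 0.23 on the log2 scale. SLC3A2, the heavy chain 4F2hc shared by many light chains, had its 4 elaidic acid values below all control values, with a change of -0.53 ± 0.20. Neither passed the test. None of the 30 member probes passed in limma, where 0.323% of all probes did. An unadjusted p under 0.05 was held by 6 members and by 3283 of the 22939 probes tested. With the slide series block no member passed either, where 0.0392% of all probes did. An unadjusted p under 0.05 was then held by 3 members and by 1497 of the 22939 probes. The median change of the members was -0.07, against -0.10 over all probes tested, with 13 members higher and 17 lower. With that block the members' median was 0.0591, with 17 higher and 13 lower.

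The level of SLC1A4 was 11.22, 11.29, 11.17 and 11.26 in elaidic acid samples 1 to 4, against 10.75, 10.56, 10.50 and 10.10 in the control samples. The elaidic acid values lie within a narrow band, in both slide series, and the groups do not overlap. The change had an interval of 0.27 to 1.24 and an adjusted p of 0.175. With the slide series block it was 0.79 ± 0.28 (interval 0.20 to 1.38, adjusted p = 0.533).

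The elaidic acid samples had levels of 12.71, 12.20, 12.33 and 12.44 for SLC3A2, against 12.80, 12.96, 12.76 and 13.28 in the control samples. The highest elaidic acid value, of sample 1, lies just under the lowest control value. The interval of the change was -0.96 to -0.10, with an adjusted p of 0.27, and with the slide series block the change was -0.63 ± 0.24 (adjusted p = 0.605).

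SLC7A5 is the light chain LAT1, which takes up leucine and other large neutral amino acids in exchange for glutamine. Its level was 13.08, 12.08, 12.83 and 12.14 with elaidic acid, against 10.29, 11.82, 11.99 and 11.93 in control. The groups do not overlap, but elaidic acid samples 2 and 4 are close to 3 of the control samples, and control sample 1 is low. The change was 1.02 ± 0.47 (adjusted p = 0.337). It was 0.60 ± 0.55 with the slide series block and 0.62 without control sample 1.

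Counted over the tested members, 2 were higher without overlap (SLC1A4 and SLC7A5), where 3.82% of all probes were, and 1 was lower (SLC3A2), where 2.68% were. Within slide series A alone, where elaidic acid samples 2 and 4 meet the 4 control samples, these 3 are separated by construction, and SLC7A7 was higher without overlap besides them. There 7.17% of all probes were higher and 5.72% lower in the same way. Counts of 1 to 3 among 30 probes are near those shares.

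SLC7A1, or CAT1, is the main carrier of arginine and lysine in many cells. Its level was 7.53, 6.98, 7.42 and 7.44 in elaidic acid samples, against 6.87, 7.00, 6.39 and 6.63 in control samples. Only elaidic acid sample 2 lies within the control range. The change was 0.62 ± 0.21 (adjusted p = 0.221), and with the slide series block 0.49 ± 0.25 (interval -0.04 to 1.02). SLC7A7, the light chain y+LAT1 that moves arginine and lysine out of cells against neutral amino acids, had levels of 7.70, 8.26, 7.81 and 8.02 with elaidic acid, against 7.67, 7.80, 7.45 and 6.98 in control. The 2 elaidic acid samples of series A were above all control samples, and the 2 of series B were within or just above the control range. The change was 0.47 ± 0.23 (adjusted p = 0.359) without the block and 0.67 ± 0.26 (adjusted p = 0.629) with it.

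**Figure D1:**
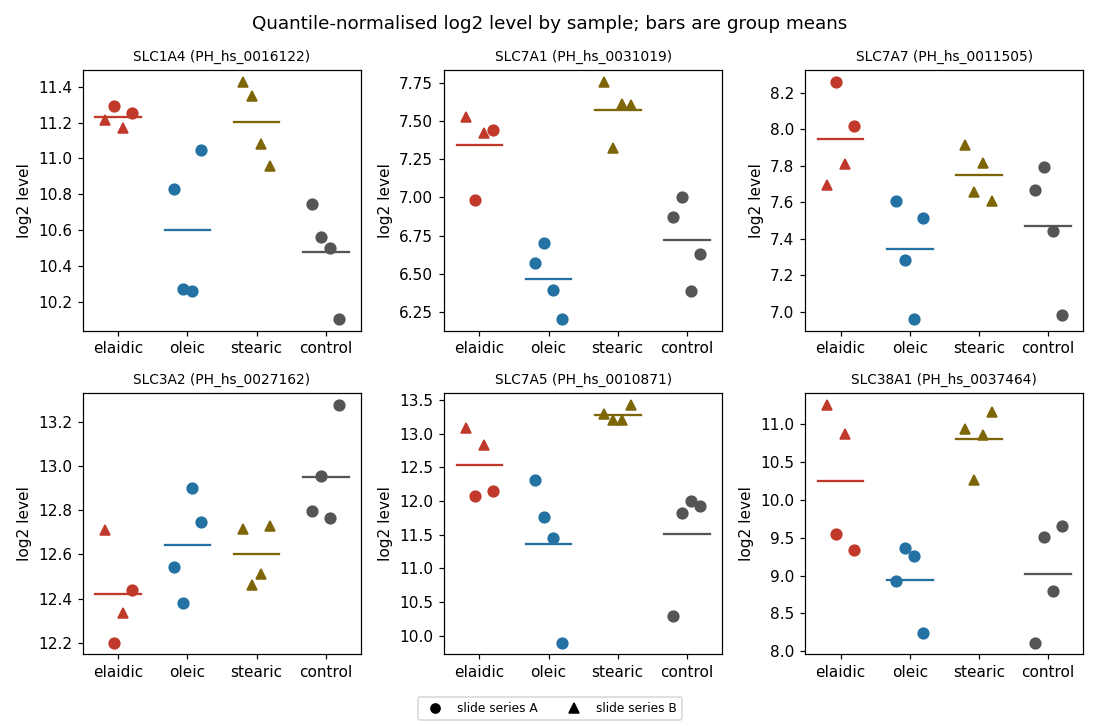
Normalised log2 level (vertical axis) of SLC1A4, SLC7A1, SLC7A7, SLC3A2, SLC7A5 and SLC38A1 in each sample, by group on the horizontal axis: elaidic, oleic and stearic acid and control, 4 samples each. Circles are slide series A, triangles series B and bars group means. The 4 elaidic acid points of SLC1A4 lie between 11.17 and 11.29, above all control points, while those of SLC38A1 split by slide series.

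The sodium-driven carriers of neutral amino acids split within the elaidic acid group. SLC38A1, also called SNAT1, had levels at probe PH_hs_0037464 of 11.25 and 10.87 in elaidic acid samples 1 and 3 and of 9.54 and 9.34 in samples 2 and 4, against 8.12, 9.51, 8.79 and 9.65 in control. Samples 1 and 3, of slide series B, are above all control samples, and samples 2 and 4 are within the control range. The change was 1.23 ± 0.45 (adjusted p = 0.246) without the slide series block and 0.43 ± 0.42 with it. The second SLC38A1 probe, PH_hs_0022481, gave 1.31 ± 0.53 without the block and 0.18 ± 0.42 with it.

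SLC38A2, also called SNAT2, is induced by amino acid shortage in many cells. Its elaidic acid levels were 12.79 and 12.56 in samples 1 and 3 and 11.34 and 11.24 in samples 2 and 4, against 10.87, 12.13, 11.57 and 12.45 in control. The series B samples lie above every control sample, and the series A samples lie among the lower ones. The change was 0.23 ± 0.44 without the block and turned to -0.46 ± 0.46 with it. SLC38A3, or SNAT3, a glutamine carrier of hepatocytes, had levels of 13.30, 12.73, 12.97 and 13.46 with elaidic acid, against 13.41, 13.71, 13.67 and 13.05 in control, and the groups overlap.

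SLC7A6, the light chain y+LAT2, showed the same split, with 6.51 and 6.46 in elaidic acid samples 1 and 3, 5.25 and 4.40 in samples 2 and 4, and 4.37, 4.26, 4.39 and 6.11 in control. The change was 0.87 ± 0.63, and 0.04 ± 0.70 with the block. SLC43A1, the uniporter LAT3 for leucine and related amino acids, was at 0.57 ± 0.46 without the block and at 0.07 ± 0.53 with it, neither of which passed. For both genes the size without the block rested on elaidic acid samples 1 and 3.

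The remaining fixed names had changes with elaidic acid whose intervals held 0. They were -0.81 for SLC7A2 (a cationic carrier), -0.42 for SLC3A1 (heavy chain of the cystine carrier), -0.28 for SLC1A1 and -0.10 for SLC1A2 (glutamate carriers). SLC36A1 and SLC36A4, carriers of the PAT family of which SLC36A1 is proton-coupled, gave -0.24 and -0.08. SLC6A9, the glycine carrier GlyT1, gave -0.09. The values were 0.24 for SLC43A2 (LAT4), 0.12 for SLC7A8 (LAT2) and 0.74 ± 0.80 for SLC43A3, a nucleobase carrier whose probe is near background. SLC1A5, the glutamine exchanger ASCT2, gave -0.02 ± 0.25 with elaidic acid, and its sign turned to 0.22 with the slide series block. The signs of SLC36A1, SLC36A4 and SLC6A9 also turned with the block, to 0.05, 0.21 and 0.24.

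**Figure D2:**
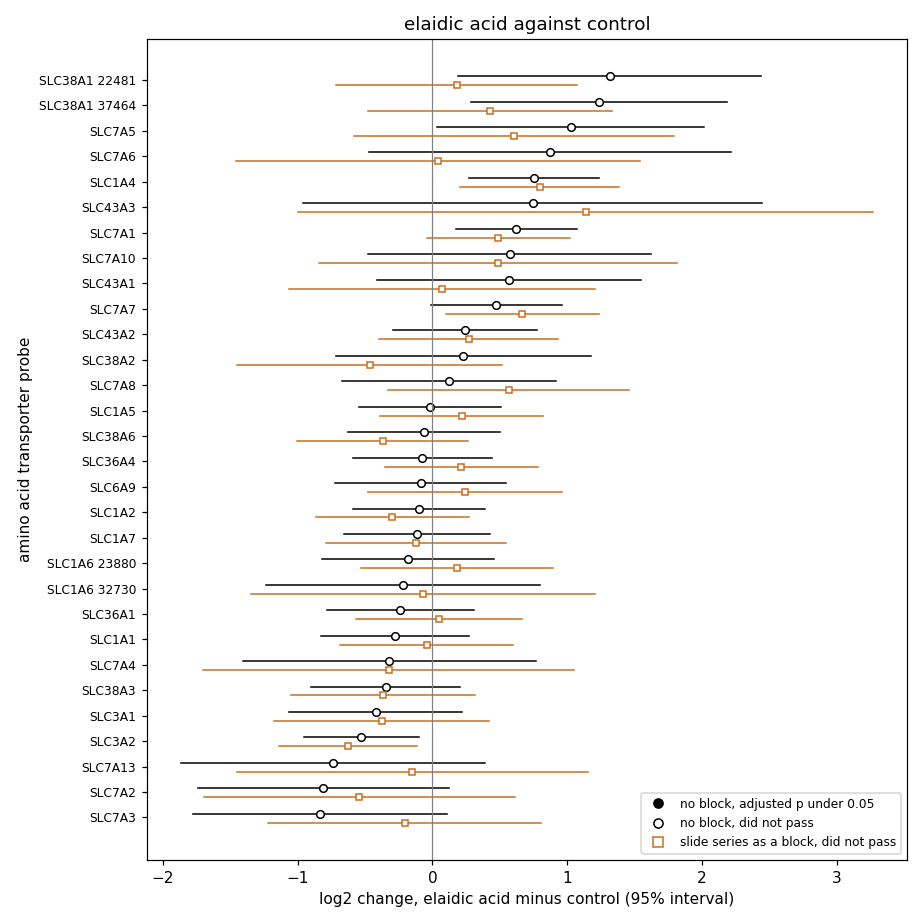
Log2 change, elaidic acid minus control (horizontal axis), with 95% intervals for the 30 tested amino acid transporter probes (vertical axis, ordered by change). Black circles have no block and orange squares have slide series as a block, and open symbols did not pass. The SLC38A1 probes move from 1.31 and 1.23 to 0.18 and 0.43 with the block, while SLC1A4 stays at 0.75 and 0.79.

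Giving each array a weight by how closely it followed its group changed the count. That fit had no slide series block, and the elaidic acid group splits by series. How far the weights carry that split was not tested. With array weights 5 members passed in elaidic acid against control, or 16.7% of the 30, where 20.3% of all probes passed. Among them SLC1A4 changed by 0.74 (adjusted p = 0.0247), SLC7A1 by 0.79 (adjusted p = 0.0154), SLC7A5 by 1.05 (adjusted p = 0.0372) and SLC38A1 probe PH_hs_0037464 by 1.71 (adjusted p = 0.00971). The share of members passing was no larger than that of all probes.

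Elaidic acid against oleic acid compares the trans with the cis form at the same dose and time. SLC7A1, SLC1A4 and SLC7A7 were each higher in all 4 elaidic acid samples than in any oleic acid sample. None of the 30 members passed in limma, 9 had an unadjusted p under 0.05, and 0.318% of all probes passed. Blocking on slide series made these none, 3 and 0.0218%. Of the 22939 probes, 4342 had an unadjusted p under 0.05 without the block and 1341 with it. The 3 higher members compare with 4.07% of all probes, and no member was lower without overlap, where 3.01% of all probes were. The median change of the members was -0.03, against -0.13 over all probes.

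SLC7A1 had levels of 7.53, 6.98, 7.42 and 7.44 in elaidic acid samples, against 6.57, 6.70, 6.39 and 6.21 in oleic acid samples. Even the lowest elaidic acid value, of sample 2, lies above the highest oleic acid value. The difference was 0.87 ± 0.21 (interval 0.43 to 1.32, adjusted p = 0.104), and 0.74 ± 0.25 (interval 0.21 to 1.28, adjusted p = 0.583) with the slide series block. It passed when all 30968 probes were kept with a floor of 10 (0.84, adjusted p = 0.032), where 0.455% of all probes passed. It also passed when only probes above the median brightness were tested (adjusted p = 0.0362), where 1.57% did. With array weights it passed too (0.83, adjusted p = 0.00267), where 39.0% of all probes did.

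SLC1A4 had oleic acid levels of 10.83, 10.27, 10.26 and 11.05, all below the 4 elaidic acid levels. The difference was 0.63 ± 0.23 (interval 0.15 to 1.11, adjusted p = 0.196), and 0.67 ± 0.28 with the block. SLC7A7 had levels of 7.61, 7.29, 6.96 and 7.51 with oleic acid, all below the 4 elaidic acid values. Its difference was 0.60 ± 0.23 (adjusted p = 0.207), and 0.80 ± 0.26 (interval 0.23 to 1.36) with the block. Within slide series A these 3 genes are separated by construction, and SLC36A4 was higher without overlap besides them, where 6.29% of all probes were.

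SLC38A1 and SLC7A6 had larger differences between elaidic and oleic acid with wider spread. SLC38A1 probe PH_hs_0022481 had levels of 7.74, 6.03, 7.54 and 4.71 with elaidic acid, against 5.14, 4.94, 4.80 and 3.76 with oleic acid. Elaidic acid sample 4 lies within the oleic acid range, and oleic acid sample 4 is the lowest of all. The difference was 1.85 ± 0.53 (adjusted p = 0.147), and 0.71 ± 0.42 with the block. Without elaidic acid sample 4 it was 2.45 (adjusted p = 0.0311), where 192 of 22939 probes passed, against 73 with all samples. That fit had no block. It set elaidic acid samples 1 and 3 of series B and sample 2 of series A against oleic acid samples all of series A. How far the series split adds to this larger difference was not tested. SLC7A6 differed by 2.05 ± 0.63 (adjusted p = 0.163), and by 1.22 ± 0.70 with the block. With array weights 11 members passed in this comparison, or 36.7%, where 39.0% of all probes passed.

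Elaidic acid against stearic acid compares the trans with the saturated acid. SLC1A5 was lower and SLC38A3 higher in every elaidic acid sample than in any stearic acid sample. None of the 30 members passed in limma, 4 had an unadjusted p under 0.05, and 0.397% of all probes passed. Blocking on slide series made these none, 2 and 0.00436%. Of the 22939 probes, 3330 had an unadjusted p under 0.05 without the block and 1334 with it. A single member was higher without overlap, where 4.72% of all probes were, and 2 were lower (SLC1A5 and SLC7A5), where 7.13% were. The median change was 0.20, against 0.07 over all probes, and -0.01 with the slide series block.

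SLC1A5, which loads glutamine in exchange for other neutral amino acids, had levels of 12.08, 12.49, 12.12 and 12.66 in elaidic acid samples, against 13.03, 13.02, 13.04 and 13.15 in stearic acid samples. The stearic acid values lie within a narrow band, and the nearest elaidic acid samples are those of the other slide series. The difference was -0.72 ± 0.25 (interval -1.25 to -0.20, adjusted p = 0.214). With the block it was -0.96 ± 0.28 (interval -1.57 to -0.35, adjusted p = 0.441).

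SLC38A3 had stearic acid levels of 12.05, 12.54, 12.43 and 12.25, below its 4 elaidic acid levels. Elaidic acid exceeded stearic acid by 0.80 ± 0.26 (interval 0.25 to 1.35, adjusted p = 0.186), and by 0.82 ± 0.32 (adjusted p = 0.702) with the block. SLC6A9 differed by 0.67 ± 0.30 (adjusted p = 0.322), and by 0.34 ± 0.34 with the block. Within slide series B alone no member was separated besides SLC38A3, SLC1A5 and SLC7A5, which are so by construction, and 11.1% of all probes were higher and 12.3% lower without overlap. With array weights 2 members passed in elaidic against stearic acid, where 4.49% of all probes did. SLC1A4 averaged 11.23 ± 0.05 with elaidic acid and 11.20 ± 0.22 in the stearic group (SD, n = 4 each), nearly the same level. Its difference of 0.03 had an interval from -0.45 to 0.51.

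Stearic acid against control had 10 of 30 members past the test (33.3%), where 29.8% of all probes passed, so the members' share was near that of the array as a whole. The 7 that rose, where 15.0% of all probes rose, were SLC1A4, SLC1A5, SLC7A1, SLC7A5, SLC7A6 and both probes of SLC38A1. The 3 that fell, where 14.8% of all probes fell, were SLC38A3, SLC3A1 and SLC7A2. With the slide series block 2 members had an unadjusted p under 0.05, as did 1710 of the 22939 probes. None of the 30 passed in limma then, and no probe of the array passed (0%). Without stearic acid sample 3 the count was 6, where 17.9% of all probes passed, and SLC7A2, SLC3A1, SLC1A4 and SLC1A5 did not pass. With array weights it was 16, where 46.1% of all probes passed. The median change of the members was 0.03, against -0.18 over all probes.

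SLC38A3 fell to 12.05, 12.54, 12.43 and 12.25 in stearic acid samples, against 13.41, 13.71, 13.67 and 13.05 in control samples. The groups do not overlap. The change was -1.15 ± 0.26 (adjusted p = 0.00686). With the slide series block it was -1.19 ± 0.45, with an interval of -2.16 to -0.23 and an adjusted p of 0.519.

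SLC1A5 rose by 0.70 ± 0.25 (adjusted p = 0.0444), with stearic acid levels of 13.03, 13.02, 13.04 and 13.15, against control levels of 12.91, 11.98, 12.53 and 12.01. Control sample 1 lies close to the stearic acid values and the other control samples well below. Leaving out control sample 1 kept the call, and leaving out any other of the 8 samples ended it. With the block the change was larger, at 1.18 ± 0.40 (interval 0.32 to 2.04), but its adjusted p was 0.468.

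The cationic carrier SLC7A1 rose by 0.85 ± 0.21 (adjusted p = 0.0104), with levels of 7.76, 7.32, 7.61 and 7.60 with stearic acid, against 6.87, 7.00, 6.39 and 6.63 in control. With the block the change was 0.59 ± 0.35. SLC7A2, the cationic carrier CAT2, moved the opposite way, with levels of 8.79, 8.56, 8.19 and 9.03 with stearic acid, against 10.62, 10.43, 10.19 and 9.36 in control. It fell by 1.51 on the log2 scale (adjusted p = 0.0211), and the change with the block was -0.98 ± 0.76. The call of SLC7A2 was lost without control sample 1 or stearic acid sample 3.

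The neutral exchanger SLC1A4 rose by 0.73 ± 0.23 (adjusted p = 0.0283), with stearic acid levels of 11.43, 11.35, 11.08 and 10.96 above all control levels. The change was 0.80 ± 0.39 with the block, and 5 of the 8 samples each ended the call when left out. SLC3A1, which pairs with SLC7A9 to carry cystine and cationic amino acids, had levels of 5.53, 5.80, 5.35 and 6.41 with stearic acid, against 7.03, 7.06, 6.65 and 6.71 in control. It fell by 1.09 (adjusted p = 0.017), and the change with the block was -0.999 ± 0.53. Leaving out stearic acid sample 1 or 3 ended that call.

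SLC7A5, SLC38A1 and SLC7A6 had the largest rises of the members called with stearic acid, and all of them shrank with the block. SLC7A5 had levels of 13.29, 13.21, 13.20 and 13.42 with stearic acid, far above all control levels. It rose by 1.77 ± 0.47 (adjusted p = 0.0135), and the change was 0.93 ± 0.78 with the block. SLC38A1 rose by 1.79 ± 0.45 (adjusted p = 0.0108) at probe PH_hs_0037464 and by 2.09 ± 0.53 (adjusted p = 0.0114) at probe PH_hs_0022481. With the block these were 0.17 ± 0.60 and -0.18 ± 0.59, so the direction of the second turned.

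SLC7A6 had stearic acid levels of 6.97, 6.53, 6.36 and 7.39, against 4.37, 4.26, 4.39 and 6.11 in control, where sample 4 stands apart. It rose by 2.03 ± 0.63 (adjusted p = 0.0276), by 0.37 ± 0.99 with the block, and the call was lost without the 2 dimmest arrays (adjusted p = 0.0693) or without any of 5 of the 8 samples. SLC38A2, which did not pass, had stearic acid levels of 12.68, 12.77, 13.03 and 12.86 above all control levels. Its change was 1.08 ± 0.44 (adjusted p = 0.0727), and -0.30 ± 0.65 with the block. In all, 9 members were higher without overlap, where 18.7% of all probes were, and 8 were lower, where 18.9% were.

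**Figure D3:**
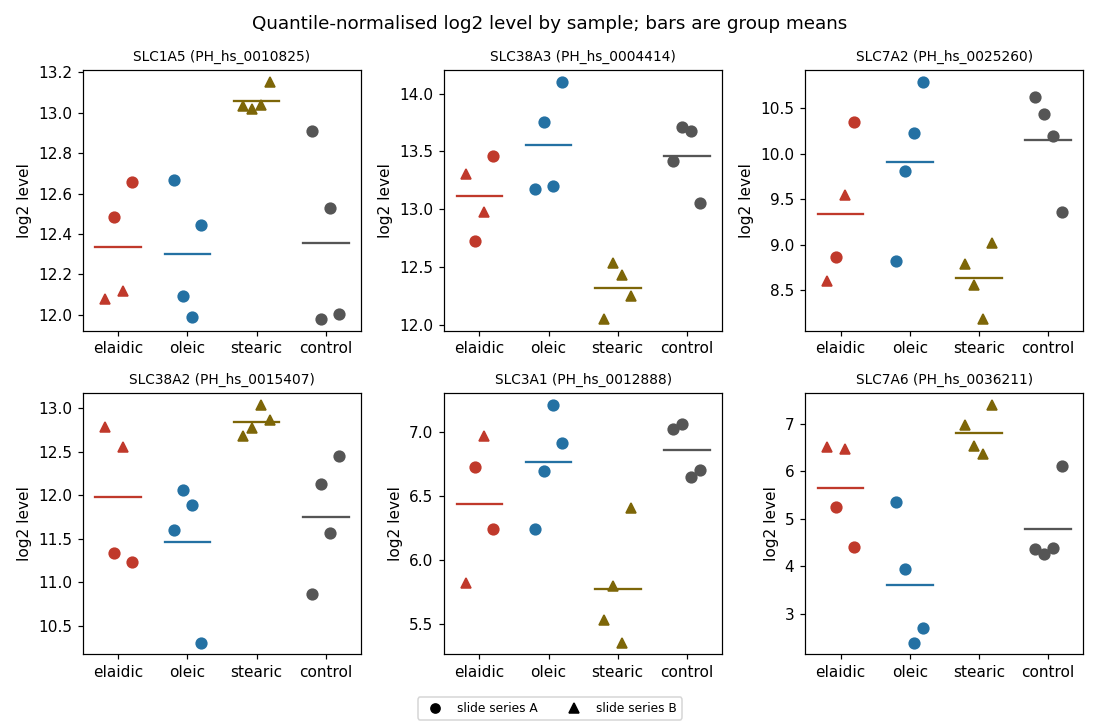
Normalised log2 level (vertical axis) of SLC1A5, SLC38A3, SLC7A2, SLC38A2, SLC3A1 and SLC7A6 in each sample, by group on the horizontal axis: elaidic, oleic and stearic acid and control, 4 samples each. Circles are slide series A, triangles series B and bars group means. SLC1A5 and SLC38A3 in stearic acid are apart from the elaidic acid samples of the same slide series, while SLC38A2 and SLC7A6 are not.

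**Figure D4:**
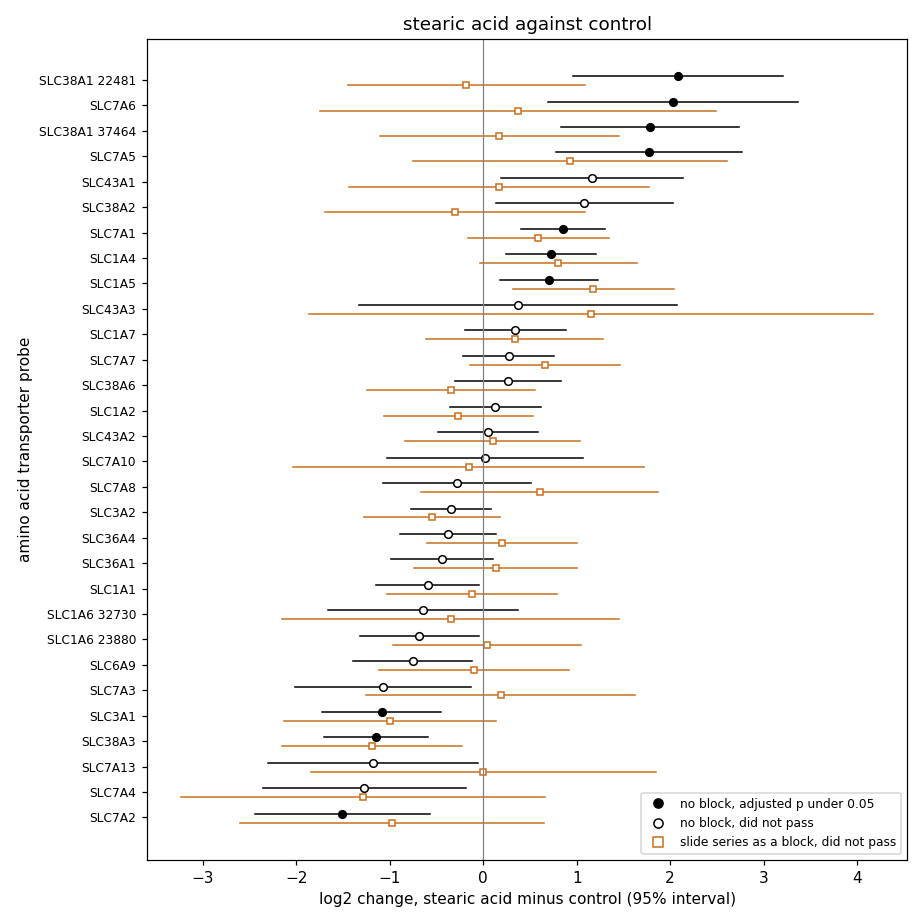
Log2 change, stearic acid minus control (horizontal axis), with 95% intervals for the 30 tested amino acid transporter probes (vertical axis, ordered by change). Black circles have no block, filled where they passed at an adjusted p under 0.05, and orange squares have slide series as a block. The 10 filled circles have no filled counterpart with the block, and the block moves the SLC38A1 probes from 2.09 and 1.79 to -0.18 and 0.17.

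Stearic acid against oleic acid, the saturated against the cis acid, had 16 of 30 members past the test (53.3%), where 39.5% of all probes passed. Once slide series was a block 3 members had an unadjusted p under 0.05, as did 1513 of the 22939 probes. No member passed in limma then, and no probe of the array passed (0%). The count was 9 without stearic acid sample 1, where 22.8% of all probes passed, 10 without stearic acid sample 3, where 26.3% did, and 10 without oleic acid sample 4, where 20.8% did. The share over all probes was thus lower too in each case. The 9 probes that rose, where 18.4% of all probes did, were those of SLC1A4, SLC1A5, SLC7A1, SLC7A5, SLC7A6, SLC38A1 (both), SLC38A2 and SLC43A1. The 7 that fell, where 21.0% of all probes did, were those of SLC38A3, SLC3A1, SLC6A9, SLC7A2, SLC7A4 and SLC1A6 (both). Of the members 8 were higher without overlap, where 21.2% of all probes were, and 2 were lower (SLC38A3 and SLC6A9), where 23.5% were. The median change was -0.06, against -0.21 over all probes.

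SLC7A1 had the smallest p of the members in stearic against oleic acid and rose by 1.11 ± 0.21 (adjusted p = 0.00284). Its stearic acid levels of 7.76, 7.32, 7.61 and 7.60 lay above oleic acid levels of 6.57, 6.70, 6.39 and 6.21, without overlap. With the block the difference was 0.84 ± 0.35 (interval 0.09 to 1.60). SLC7A6 rose by 3.21 ± 0.63 (adjusted p = 0.00318), with oleic acid levels of 5.36, 3.94, 2.40 and 2.71. Oleic acid samples 3 and 4 of SLC7A6 were under the noise limit, so the size of this difference is uncertain. It was 1.55 ± 0.99 with the block.

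SLC38A3 fell by 1.24 on the log2 scale with stearic against oleic acid (adjusted p = 0.00409), with oleic acid levels of 13.18, 13.75, 13.20 and 14.10. With the block the change was -1.29 ± 0.45 (interval -2.25 to -0.32). SLC1A5 rose by 0.76 ± 0.25 (adjusted p = 0.0272), above oleic acid levels of 12.67, 12.09, 11.99 and 12.45, and the difference was 1.23 ± 0.40 (interval 0.38 to 2.09) with the block. With SLC7A1, these were the 3 members whose interval did not hold 0 with the block.

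The glycine carrier SLC6A9 had stearic acid levels of 5.84, 5.60, 5.68 and 5.20, against 6.59, 6.78, 6.63 and 7.07 with oleic acid. It fell by 1.19 (adjusted p = 0.00931), and the change with the block was -0.53 ± 0.48. SLC43A1 rose by 1.69 ± 0.46 (adjusted p = 0.013), with stearic acid levels of 8.67, 8.59, 8.64 and 8.56, against 7.13, 7.31, 7.86 and 5.38 with oleic acid. Oleic acid sample 4, a dim array, is the lowest. With the block the SLC43A1 difference was 0.70 ± 0.75.

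Among the other members called in stearic against oleic acid, SLC38A1 rose by 2.62 ± 0.53 and 1.86 ± 0.45 at its probes (0.35 and 0.24 with the block) and SLC7A5 by 1.93 ± 0.47 (1.08 with the block), and leaving out any 1 of the 8 samples did not end these calls. SLC38A2 rose by 1.37 ± 0.44 (adjusted p = 0.0269) and had -0.01 ± 0.65 with the block. SLC1A4, SLC3A1, SLC7A2, SLC7A4 and SLC1A6, a glutamate carrier, had changes of 0.60, -0.99, -1.27, -1.54 and, at its 2 probes, -0.86 and -1.48. For SLC7A4, stearic acid samples 2 and 3 and oleic acid sample 1 were under the noise limit. For SLC1A6 probe PH_hs_0032730, which gave -1.48, stearic acid samples 1 and 4 were under it. Leaving out any of 3 to 6 of the 8 samples ended the calls of SLC1A4, SLC1A5, SLC1A6, SLC3A1, SLC7A2, SLC7A4 and SLC38A2. Without the 2 dimmest arrays 10 members passed, where 26.5% of all probes did, and SLC38A2, SLC3A1, SLC7A2, SLC7A4 and both SLC1A6 probes did not.

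Oleic acid against control gave no member past the test, none with an unadjusted p under 0.05, and no probe of the array past it (0%, with 602 probes at an unadjusted p under 0.05). No member was separated without overlap, where 1.23% of all probes were in either direction. The median change was -0.07, against 0.01 over all probes. The 3 members of smallest p were SLC7A6 at -1.18 ± 0.63 (interval -2.52 to 0.16), SLC1A6 probe PH_hs_0032730 at 0.84 ± 0.48 and SLC43A3 at 1.37 ± 0.80. All 3 have values under the noise limit. For the brighter SLC1A4, SLC1A5, SLC7A1 and SLC38A3 the changes were 0.12, -0.06, -0.25 and 0.10, and their intervals stay within -0.70 and 0.65.

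Around the transporters, a list of 26 genes of the amino acid response, ATF4 and its targets, had 22 genes tested. With elaidic acid against control 15 were higher and 7 lower. Their median was 0.68 (0.54 with the slide series block), against -0.10 over all probes tested (0.02 with the block). Of the 22, 11 had an unadjusted p under 0.05 (5 with the block), as did 3283 of all 22939 probes (1497 with the block). Only 1 gene of the list passed, where 0.323% of all probes did. That gene, TRIB3, a pseudokinase that ATF4 induces and that curbs it, rose by 1.31 ± 0.26 (adjusted p = 0.0426), and the change was 1.17 ± 0.31 (adjusted p = 0.302) with the block. PHGDH, the first enzyme of serine synthesis, was at 0.97 ± 0.22 (adjusted p = 0.084), CEBPG at 1.78 ± 0.45 and DDIT4 at 0.76 ± 0.19, none of which passed. With stearic acid against control 11 rose, where 15.0% of all probes did, and 1 fell, where 14.8% did. Among them were PHGDH at 1.51, ATF5 at 2.29 and the serine enzyme PSAT1 at 2.07, and none of the list passed with the block. With oleic acid against control 11 were higher and 11 lower, and none passed or had an unadjusted p under 0.05.

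The enzymes that break down and interconvert amino acids had 27 of 36 genes tested. With elaidic acid against control 18 were higher, with a median of 0.19, and none passed. Of the 27, 5 had an unadjusted p under 0.05 in limma, as did 3283 of all 22939 probes. BCAT2, the mitochondrial aminotransferase of branched-chain amino acids, was at -0.995 ± 0.28 (adjusted p = 0.156), and ALDH18A1, of proline synthesis, at 1.39 ± 0.45 (adjusted p = 0.208). With stearic acid against control 9 rose, led by GOT2 at 3.12 ± 0.75 and ALDH18A1 at 2.23 ± 0.45, and BCAT2 and AASS fell, where 29.8% of all probes passed. With the block no gene of this list passed. Then 1 had an unadjusted p under 0.05, as did 1710 of all 22939 probes.

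Of the genes through which mTORC1 senses amino acids, 14 of 31 were tested. With elaidic acid against control 9 were higher, with a median of 0.37 (0.07 with the block), and none passed. Of the 14, 1 had an unadjusted p under 0.05, as did 3283 of all 22939 probes. With stearic acid against control SESN2, RHEB, TSC1 and RRAGA rose, by 1.38, 2.28, 1.14 and 1.04. With the slide series block their changes were 0.51, 0.02, 0.16 and 0.17. These 4 of 14 are a share near the 29.8% of all probes that passed, and none passed with the block. Glutathione synthesis, which uses cystine brought in by SLC7A11, had 5 of 9 genes tested. None passed with elaidic acid against control. An unadjusted p under 0.05 was held by 2 of them and by 3283 of all 22939 probes. Of these 2, SLC3A2 is itself a transporter described above. With stearic acid against control GSR and GSS rose by 1.67 ± 0.35 and 1.26 ± 0.29. With the block the changes were 0.86 ± 0.56 and 0.74 ± 0.48, and neither passed, nor did any probe of the array.

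The 13 member probes left out of the test were mostly dim, and 8 of them were near background. SLC7A11, the cystine and glutamate exchanger that pairs with SLC3A2, ran from -6.40 to 13.4 in intensity with a median of 3.80 and was near background in 14 samples. SLC1A3, SLC6A6, SLC6A14, SLC6A15, SLC36A2, SLC38A4 and 1 of 2 probes of SLC36A3 were also near background, in 10 to 15 samples. The second probe of SLC36A3, SLC6A19, SLC7A9, SLC7A14 and SLC38A5 were near background in 5 to 8 samples.

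SLC38A5, or SNAT5, a carrier of glutamine and other amino acids, is described as the member that stood out among those left out, a choice made after its values were seen. Its intensity was 27.8, 6.53, 21.5 and 17.9 in elaidic acid samples and 6.52, 11.01, 7.51 and 2.18 in oleic acid samples. It was 69.1, 32.0, 96.4 and 103.6 in stearic acid samples, against -3.08, 9.05, 10.1 and 30.8 in control samples. Every stearic acid value lies above all others, though control sample 4 at 30.8 is close to stearic acid sample 2 at 32.0. With a floor of 10 on all probes, all oleic acid samples, 1 elaidic acid sample and 2 control samples were set to it. Control sample 3 lay just above that floor. The size of any change and its p-value therefore depend on the floor, as values set to it have no spread. No fold is given. With the floor, SLC38A5 passed in elaidic against stearic acid (lower, adjusted p = 0.0409, where 1.08% of all probes passed). It was higher in stearic acid against control (adjusted p = 0.00167), where 6931 of 30968 probes passed. It was also higher in stearic against oleic acid (adjusted p = 0.00101), where 9039 of 30968 did. With the floor and the slide series block the adjusted p-values were 0.352, 0.428 and 0.389.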

How the data were processed

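RNA of 16 HepG2 samples was labelled with Cy5 and measured on 1-colour arrays with 30968 probes. Per the labels, each sample was run as 2 technical replicates, while the table has a single column for it. Judged by its range, the table deposited by the authors gives linear intensity after background subtraction. How the authors combined technical replicates and subtracted background is not given in the sources used here. Gene symbols are those of the platform table, which can be old. No probe of SLC38A9 was found.

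Log2 values need positive numbers, so 8029 probes (25.9%) that were 0 or negative somewhere were dropped. The rest were taken to log2, and 22939 probes were then quantile normalised. The linear models of limma 3.58.1 under R 4.3.3 used all 16 samples, with moderated two-sided tests and Benjamini-Hochberg adjustment over all probes tested. Groups come from the sample titles. The labels give no pairing of replicate numbers. The number of arrays limits the precision.

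A value was near background under 3 noise SDs, the noise SD being the median size of a sample's values below 0 scaled to a normal SD, and a probe was near background when this held in more than 8 samples. Values were given for members called in any contrast, for the 3 of smallest p per contrast and for a fixed list of transporters. From each pathway list, called genes and up to 4 of smallest p could be named. The members, lists and naming rule were chosen with earlier results of these data known. The fit was tested on simulated data with independent noise and no slide series effect, so that test does not bear on the series split. Alternatives covered the normalisation, probes at or below 0 (a floor of 10), dim probes, slide series and replicate number as blocks, an intensity trend with robust variances, array weights, fits on 2 groups and each sample left out. Leaving out the 2 dimmest arrays, and the floor together with the slide series block, were chosen after seeing the data. Plots were made in Python 3.11.15 with matplotlib 3.10.9. Promoter windows are from RefSeq on GRCh38.p14, a build given with that table and not with the arrays.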

Additional observations from a re-analysis of the deposited data

Results flagged for a closer look

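A total of 100 groups of 4 samples, from 25 member probes with named values, were examined for 1 sample apart from the other 3, and 5 had one. Chance gives about 1 in 20 groups, and 5 of 100 is that share. SLC7A5 was at 10.29 in control sample 1, with the other control samples between 11.82 and 11.99. SLC6A9 was at 7.23 in control sample 1, with the others between 5.99 and 6.12. Control sample 1 is 1 of the 2 dimmest arrays, and its part in these values was not tested. SLC7A6 was at 6.11 in control sample 4, with the others between 4.26 and 4.39. SLC1A5 was at 13.15 in stearic acid sample 4, with the others between 13.02 and 13.04, a gap smaller than the spread of the other groups. SLC43A3 was at 3.67 in elaidic acid sample 2, with the others between 2.07 and 2.20, and this probe is near background in 12 samples.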

How the results depend on the processing

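The counts of members that passed kept within 1.5 times of the reported ones under median centring, an intensity trend with robust variances and fits on the 2 groups alone. With the slide series block the count was 0 in stearic acid against control and 0 in stearic acid against oleic acid, and likewise 0 in both with the floor of 10 and the slide series block. Array weights gave 5 members in elaidic acid against control, 11 in elaidic against oleic acid, 2 in elaidic against stearic acid and 16 in stearic acid against control. The floor of 10 gave 1 member in elaidic against oleic acid (SLC7A1) and 1 in elaidic against stearic acid (SLC38A5). The p-value of SLC38A5 depends on the floor. Testing only probes above the median brightness gave 1 in elaidic against oleic acid. Without the 2 dimmest arrays 10 passed in stearic against oleic acid. Leaving out each sample in turn gave 0 to 1 members in elaidic against oleic acid, 6 to 12 in stearic acid against control and 9 to 18 in stearic against oleic acid. In the other contrasts it gave 0.

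The median change of the members in elaidic against stearic acid, 0.20, was 0.0295 among probes above the median brightness, 0.0299 with array weights, -0.0134 with the slide series block and 0 with the floor and that block, and 0.0536 to 0.26 when each sample was left out. In elaidic acid against control the median of -0.07 was 0.0838 with the floor and the slide series block. It also turned sign with the slide series block (0.0591) and without the 2 dimmest arrays (0.0068), and ran from -0.13 to 0.0297 when each sample was left out. In stearic against oleic acid the median of -0.06 was 0.18 among probes above the median brightness, 0.066 with median centring and 0.006 with the slide series block, and ran from -0.20 to -0.003 when each sample was left out. In stearic acid against control the median of 0.03 was -0.0264 with median centring, -0.0553 with array weights and -0.0143 with the floor, and ran from -0.0729 (without control sample 4) to 0.12. In elaidic against oleic acid the median of -0.03 was 0.037 among probes above the median brightness. The causes were not tested.

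Some small changes turned sign. In elaidic acid against control, the slide series block gave 0.22 for SLC1A5, 0.21 for SLC36A4, -0.46 for SLC38A2, 0.0471 for SLC36A1 and 0.24 for SLC6A9, and with the floor as well 0.22, 0.20, -0.46, 0.0481 and 0.22. Without the 2 dimmest arrays SLC1A5 was at 0.16, SLC38A2 at -0.0685 and SLC6A9 at 0.21. Median centring gave 0.0662 for SLC1A5, and array weights -0.0729 for SLC7A8 and 0.0928 for SLC1A2. When each sample was left out, the changes ran from -0.15 to 0.16 for SLC1A5, -0.26 to 0.0373 for SLC36A4, -0.0685 to 0.48 for SLC38A2, -0.23 to 0.21 for SLC6A9 and -0.0798 to 0.40 for SLC7A8. The slide series block, without and with the floor, gave -0.18 and -0.17 for SLC38A1 probe PH_hs_0022481 in stearic acid against control and -0.0143 and -0.0112 for SLC38A2 in stearic against oleic acid.

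The labels do not pair the samples by replicate number. Deviations from the group means also hold the slide series split and the dim arrays, so their correlations cannot exclude a pairing. Of 24 same-numbered pairs 7 correlated above 0.1 in their deviations from the group means, the range was -0.46 to 0.36, and 1 sample of 16 correlated best with its own number. With the replicate block 9 members passed in stearic acid against control, 14 in stearic against oleic acid and 0 in each other contrast. Over all probes that block gave 28 calls in elaidic acid against control, where 74 passed without it.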
